A study of Rattus norvegicus albus with 14 samples.

Results

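The whole course of rosiglitazone in cultured heart muscle cells was described by comparing the libraries taken 48 h after the drug was added with those taken 0.5 h after it was added. The comparison was chosen by the exposure time in the labels and rests on 4 of the 7 libraries of the series (8 of 14 samples, since each library was deposited as 2 splits). The cells were neonatal rat ventricular myocytes, isolated from 1-day-old Sprague-Dawley rats, pooled, preplated to remove fibroblasts (to over 98% myocytes, per the labels) and kept in serum-free medium with insulin, transferrin and selenium. The group of 0.5 h and the group of 48 h both received 10 µmol/L rosiglitazone in 1% DMSO and held 2 libraries each. The other libraries were 1 of 1% DMSO alone at 0.5 h and 2 of rosiglitazone at 24 h. No vehicle library of 48 h was analysed here, so time with the drug and time in serum-free culture cannot be told apart. The protocol names no separate cultures behind the libraries of a group, so the spread behind the p-values is that between libraries and may be technical.

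Rosiglitazone is a thiazolidinedione, an insulin-sensitizing drug that binds the nuclear receptor PPARγ. PPARs pair with retinoid X receptors on DNA and switch on genes of fatty acid uptake, storage and oxidation, and in the heart PPARα and PPARδ carry much of this program. Neonatal ventricular myocytes beat in culture, carry sarcomeres, still divide to some degree, and are a common model of the growing heart muscle cell. A bulk library averages over all cells of a dish, so fewer cells of a type and less RNA per cell cannot be told apart.

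The libraries of 0.5 h held 28074620 and 27360284 counts, and replicate 2 of 48 h was the shallowest, with 10886559 against 27467157 in replicate 1. A value of 3 counts, taken as the limit that a count of 0 allows, was 0.106 to 0.279 CPM (counts relative to the size of a library, scaled for its composition) and covers counting error only. Between replicates, 2052 genes at 0.5 h and 3894 genes at 48 h differed by more than 2-fold. The root mean square of log2 differences over genes was 0.814 between the libraries of 0.5 h, 1.23 between those of 48 h and 1.74 to 1.79 between libraries of the 2 times. A few genes that every cell uses had 0 counts in all 4 libraries, such as those of ferritin heavy chain (Fth1) and ribosomal protein S6 (Rps6), so a 0 in these tables can reflect the counting and not the cells.

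By edgeR's quasi-likelihood test, 1031 of 15655 genes (6.59%) passed an adjusted p of 0.05 (called). Of these, 308 (1.97%) were higher and 723 (4.62%) were lower at 48 h, while the median log2 fold change of all genes was -0.07. For every called gene the 2 libraries of 48 h lay outside the range of the 2 libraries of 0.5 h, which also held for 4428 genes higher and 5384 lower among all genes tested. DESeq2 called 2547 genes, 857 higher and 1690 lower, and these included all 1031. The 24 h libraries entered the fit but not the comparison. Both lay between the 2 groups for 174 of the 308 higher genes and 494 of the 723 lower genes. Both lay beyond the libraries of 48 h for 11 and 7. A wide spread between the 24 h libraries made a call less likely, so these counts depend in part on the calling. The same positions were not counted over all genes tested.

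The number of calls rested on single libraries and on the 24 h group in the fit, without which it was 2741. It was 35 without replicate 1 of 0.5 h, 95 without replicate 2 of 0.5 h, 12 without replicate 1 of 48 h and 397 without replicate 2 of 48 h, where the lone library was assumed to vary like the other groups. Without a library of 24 h it rose to 2706 or 2699. None of the 117 called genes that were named by rule changed sign in any of these fits. Because the libraries of the 2 times did not overlap for any called gene, this was nearly fixed in advance and says little about stability. For 28 of the 117, the fold change moved by more than 1.5-fold without replicate 1 of 48 h, and for 33 without replicate 2 of 48 h. It did so for 7 and 5 without replicate 1 or replicate 2 of 0.5 h. Called in every fit that left out 1 library were Mt1, Mt2A, Pvalb, Angptl4, Acot2, Cxcl10, Fam111a and AC128848.1.

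**Figure D1:**
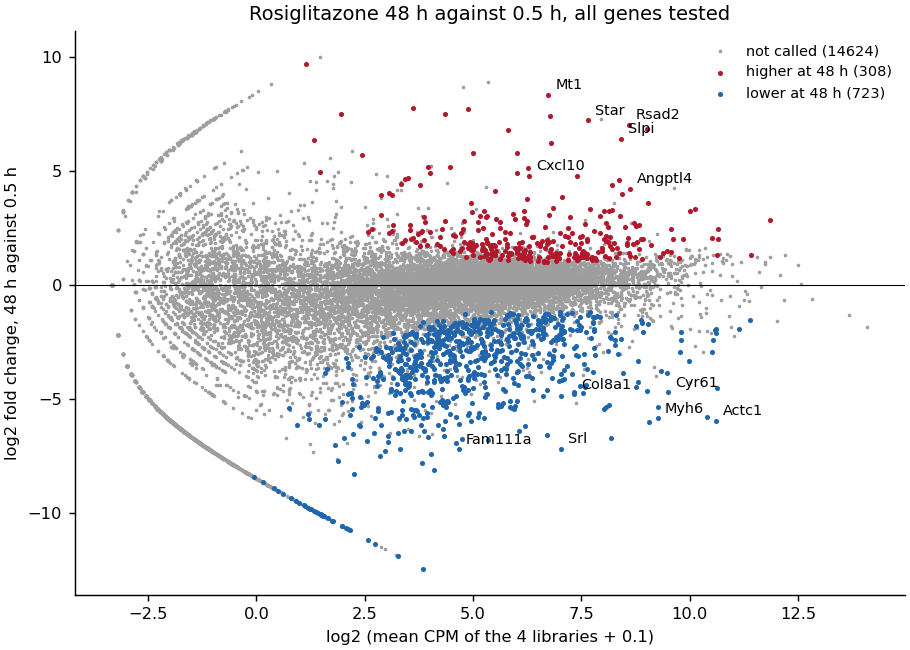
Log2 fold change of 48 h against 0.5 h (y) against the log2 of the mean CPM of the 4 libraries plus 0.1 (x) for the 15655 genes tested, with the 308 genes called higher in red and the 723 called lower in blue. Points on the outer curves at the left have 0 counts in 1 group, where the fitted fold depends on the prior count and is no measurement; the labelled genes are described in the text.

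With all libraries, genes of the contractile apparatus had, after those of mitosis, the lowest median among the 41 gene lists described here. Without replicate 1 of 0.5 h or without replicate 2 of 48 h, the contractile genes had the lower median. Of 26 measured genes of the thick filament, thin filament and Z-disc, 17 were called lower and 0 were called higher. Both libraries of 48 h were lower for 5384 of all 15655 genes tested, and for all 26 genes of this list. Their median log2 fold change was -4.18 (-3.66 without replicate 1 of 48 h and -5.31 without replicate 2), against -0.07 for all genes. Together they held 2.02% and 1.94% of counts at 0.5 h, 1.65% and 0.512% at 24 h and 0.0769% and 0.283% at 48 h. Replicate 1 of 48 h held the least. The DMSO library of 0.5 h held 1.18%, below both rosiglitazone libraries of that time. Collagen and matrix genes held 10.7% and 9.73% of counts at 0.5 h of rosiglitazone. As a set, the contractile genes, markers of the labelled cell type, were thus present at 0.5 h and lower at 48 h. Not every marker was low at 48 h: Tnnt2 was still at 134 and 946 CPM.

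Myh6, the fast α-myosin heavy chain of the heart, was at 1212 and 1209 CPM at 0.5 h, 385 and 90.5 at 24 h and 10.2 and 33 at 48 h, a 56.4-fold fall (log2 -5.82 ± 0.88 SE, adjusted p 0.0161). The slow β-myosin heavy chain Myh7 went from 2913 and 2373 to 13.2 and 83.3 CPM (log2 -5.78 ± 1.14, adjusted p 0.0311). Cardiac α-actin, Actc1, went from 3465 and 2649 to 21 and 79.8 CPM (log2 -5.93 ± 1.10, adjusted p 0.0269). In all 3 genes the libraries of 48 h were far below those of 0.5 h, and replicate 1 of 48 h was lower than replicate 2. The log2 fold changes of Myh6, Myh7 and Actc1 were -5.23, -5.03 and -5.30 without replicate 1 of 48 h and -6.89, -7.65 and -7.18 without replicate 2. The M-band proteins Myom1 and Myom2, which crosslink thick filaments, fell 17.4-fold and 93.4-fold (adjusted p 0.0151 and 0.0163; log2 -4.75 and -7.50 without replicate 2 of 48 h). The regulatory light chain Myl2 was at 505 and 543 and then 4.14 and 22.6 CPM (log2 -5.31 ± 1.20, adjusted p 0.0456), and myosin-binding protein C, Mybpc3, at 600.0 and 499 and then 4.32 and 25.3 (log2 -5.24 ± 1.07, adjusted p 0.0349). Skeletal α-actin, Acta1, fell from 119.9 and 91.1 to 6.15 and 15.3 CPM (log2 -3.31 ± 0.47, adjusted p 0.0143; -4.10 without replicate 2 of 48 h).

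Thin-filament regulators were less uniform. Cardiac troponin I, Tnni3, was at 357 and 389.9 CPM at 0.5 h, 945 and 138 at 24 h and 9.22 and 27.8 at 48 h (log2 -4.35 ± 0.94, adjusted p 0.0407; -5.34 without replicate 2 of 48 h), and troponin C, Tnnc1, fell 19-fold (adjusted p 0.034). Cardiac troponin T, Tnnt2, did not pass: it was at 2104 and 2198 CPM at 0.5 h, 3215 and 1057 at 24 h and 134 and 946 at 48 h (log2 -1.99 ± 0.87, adjusted p 0.225; -1.22 without replicate 1 of 48 h and -4.00 without replicate 2). Both values of 48 h were below those of 0.5 h, but they stood far apart. The tropomyosin gene Tpm1 just missed the threshold at 2184 and 2307 and then 118 and 472 CPM (log2 -2.93 ± 0.71, adjusted p 0.0541). At the Z-disc, where thin filaments are anchored, Actn2 was called lower (1001 and 998 to 17.3 and 63.2 CPM, log2 -4.64 ± 0.75), as were Csrp3, Ldb3, Myoz2 and Tcap.

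**Figure D2:**
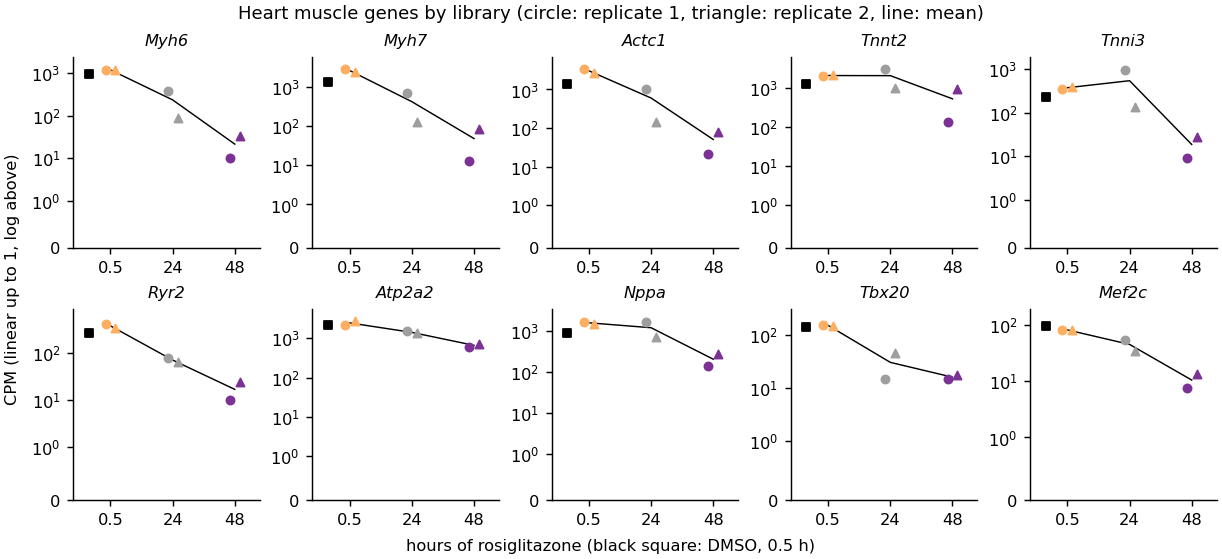
CPM by library for 10 heart muscle genes at 0.5, 24 and 48 h of rosiglitazone, on an axis that is linear up to 1 and logarithmic above, with the DMSO library as a black square. Both purple points of 48 h lie below both orange points of 0.5 h in every panel, and the 2 libraries of 48 h are furthest apart for Tnnt2 (134 and 946 CPM) and Myh7 (13.2 and 83.3 CPM).

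Of 24 measured genes of calcium release, calcium storage and the cardiac action potential, 9 fell, 0 rose and 15 did not pass. Their median log2 fold change was -2.55 (-2.06 without replicate 1 of 48 h and -4.21 without replicate 2). The ryanodine receptor Ryr2, through which calcium leaves the sarcoplasmic reticulum, was at 409.6 and 322 CPM at 0.5 h and 9.96 and 23.5 at 48 h, a 22-fold fall (log2 -4.46 ± 0.47, adjusted p 0.00719). Calsequestrin 2, Casq2, which buffers calcium in that store, went from 479.9 and 533 to 7.21 and 16.6 CPM (log2 -5.43 ± 0.80, adjusted p 0.0156). Without replicate 2 of 48 h the log2 fold changes of Ryr2 and Casq2 were -5.20 and -6.13. The pump that refills the store, Atp2a2, fell less, from 2199 and 2754 to 616 and 715 CPM (log2 -1.90 ± 0.30, adjusted p 0.0165), and its 2 libraries of 48 h lay close together. Its inhibitor phospholamban, Pln, did not pass, with 997 and 1249 CPM at 0.5 h, 1290.1 and 80.4 at 24 h and 7.76 and 134 at 48 h (log2 -3.99 ± 1.51, adjusted p 0.166; -3.10 without replicate 1 of 48 h and -7.18 without replicate 2). Among the channels and exchangers of the cell surface, the calls included the potassium channel Kcnh2 (25.9 and 38.5 to 1.43 and 2.32 CPM, log2 -4.13 ± 0.67), the L-type calcium channel genes Cacna1c and Cacnb2 (3.38-fold and 5.47-fold) and the sodium-calcium exchanger Slc8a1 (6.3-fold). Sarcalumenin, Srl, a calcium-binding protein of the same store that was in no list, was among the largest decreases, at 259 and 262 CPM at 0.5 h, 169 and 6.82 at 24 h and 1.94 and 1.67 at 48 h (log2 -7.15 ± 1.41, adjusted p 0.031). Connexin 43, Gja1, the main gap junction protein of the ventricle, was at 363 and 465 and then 242 and 239 CPM and did not pass (log2 -0.79 ± 0.54, adjusted p 0.435).

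Of 20 cardiac transcription factors and cofactors, 5 were called lower, with a median of -1.56. Myocardin, Myocd, a cofactor of serum response factor in heart and smooth muscle, was at 43.9 and 29.5 CPM at 0.5 h and 1.21 and 0.837 at 48 h (log2 -5.13 ± 0.51, adjusted p 0.00664). The factors Tbx20 (155 and 152 to 14.8 and 17.6 CPM, log2 -3.25 ± 0.53, adjusted p 0.0181) and Mef2c (81.4 and 80.8 to 7.61 and 13.3 CPM, log2 -2.97 ± 0.40, adjusted p 0.0128) fell. Replicates were close for both genes at 0.5 h and for Tbx20 at 48 h. Tbx20 was at 14.8 and 46.7 CPM at 24 h, and the log2 fold change of Mef2c was -2.645 and -3.41 without replicate 1 or replicate 2 of 48 h. Prox1 fell 4.47-fold (adjusted p 0.0425; log2 -2.90 without replicate 2 of 48 h), and Ankrd1, a muscle ankyrin repeat protein, fell 22.9-fold (adjusted p 0.0457). Gata4, a founding factor of the heart lineage, was at 243 and 214 CPM at 0.5 h and 138 and 141 at 48 h and did not pass (log2 -0.71 ± 0.26, adjusted p 0.148).

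The list of fetal and hypertrophy genes held 19 measured members, of which 12 were called lower and 2 higher, with a median of -2.56. Atrial natriuretic peptide, Nppa, a hormone of the stretched heart, was at 1657 and 1448 CPM at 0.5 h, 1640.4 and 720.1 at 24 h and 142 and 265 at 48 h, with 856 in DMSO (log2 -2.93 ± 0.50, adjusted p 0.0203). Corin, the protease that activates it, fell from 9.44 and 11 to 0.293 and 0.186 CPM (log2 -5.33 ± 0.75, adjusted p 0.0137). B-type natriuretic peptide, Nppb, just missed the threshold, with 386 and 258 CPM at 0.5 h and 2.05 and 16.6 at 48 h (log2 -5.15 ± 1.22, adjusted p 0.0511; -4.32 without replicate 1 of 48 h and -7.29 without replicate 2). The actin-binding Xin proteins Xirp1 and Xirp2 fell 9.19-fold and 33.9-fold, and the LIM protein Fhl1 fell 4.8-fold. The 2 members that rose, the metallothionein Mt1 and the growth and differentiation factor Gdf15, are known as stress-induced genes in many cell types. Gdf15 was at 30.8 and 21.6 CPM at 0.5 h, 120.2 and 611 at 24 h and 706 and 570.0 at 48 h, a 24.4-fold rise (log2 4.61 ± 0.75, adjusted p 0.0179).

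Genes that buffer energy and oxygen in muscle fell where they were called. Myoglobin, Mb, which stores oxygen, was at 121 and 168 CPM at 0.5 h, 336 and 19.4 at 24 h and 0.842 and 3.53 at 48 h (log2 -6.15 ± 1.38, adjusted p 0.0449; -5.38 without replicate 1 of 48 h and -7.41 without replicate 2). The muscle creatine kinase Ckm went from 80.2 and 112 to 5.01 and 11 CPM (log2 -3.61 ± 0.72, adjusted p 0.0332; -4.26 without replicate 2 of 48 h). The mitochondrial creatine kinase Ckmt2 was at 2.43 and 4.14 CPM at 0.5 h and had 0 counts in both libraries of 48 h, which puts it at least 11.8-fold lower (adjusted p 0.0317). These were the 3 calls among 16 genes, all 16 of which had a negative fold change (median -2.05, and -2.94 without replicate 2 of 48 h).

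Transcripts of the mitochondrial genome and of nuclear respiratory chain genes gave no calls. All 11 measured protein-coding genes of the mitochondrial genome lay lower in both libraries of 48 h, against 5384 of all 15655 genes tested. The median of the 11 was -1.91, and 0 of 11 passed. They held 2.0% and 1.8% of counts at 0.5 h and 0.831% and 0.562% at 48 h, but 2.96% and 0.737% at 24 h, where the 2 libraries stood far apart, and the fit shares that spread. Mt-nd4l came closest, at 95 and 59.6 CPM at 0.5 h and 22.4 and 10.6 at 48 h (log2 -2.22 ± 0.52, adjusted p 0.0504). The 28 nuclear genes of oxidative phosphorylation had a median of -0.35 and 0 calls. Among 20 regulators of mitochondrial biogenesis, Ppargc1a, the coactivator PGC-1α, fell from 14.5 and 20.7 to 1.9 and 1.86 CPM (log2 -3.22 ± 0.57, adjusted p 0.0221), and Peo1, the mitochondrial DNA helicase Twinkle, rose from 29.8 and 35.5 to 72.2 and 96.1 CPM (log2 1.36 ± 0.29, adjusted p 0.04).

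**Figure D3:**
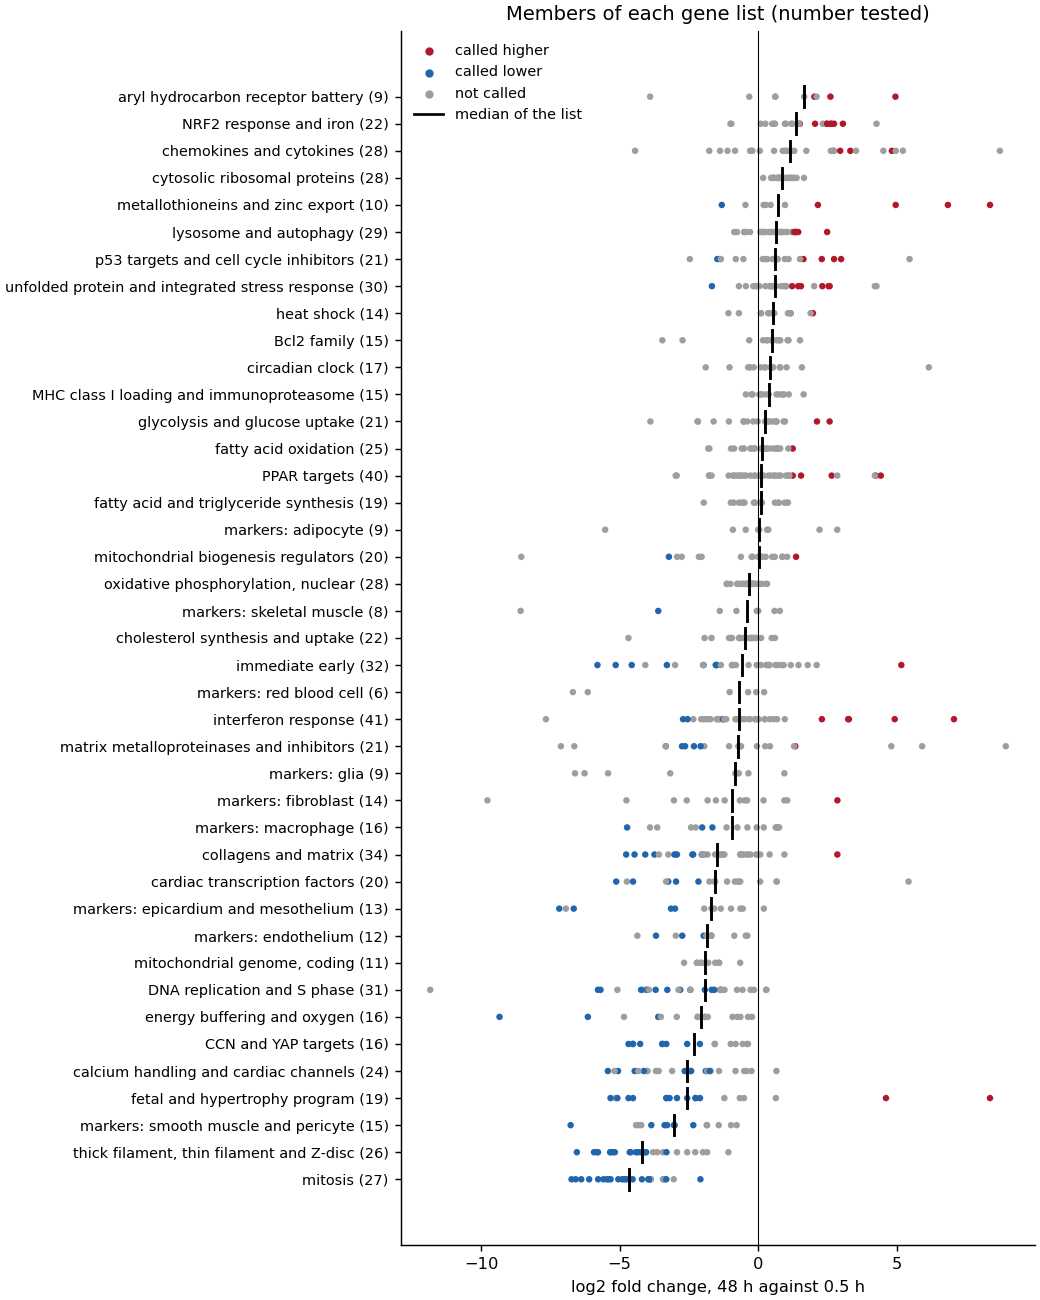
Log2 fold change of 48 h against 0.5 h (x) for every measured member of the 41 gene lists (y, number tested in parentheses), with called members in red or blue, other members in grey and the list's median as a black bar. Lists run from aryl hydrocarbon receptor genes (median 1.66, and 0.77 without replicate 1 of 48 h) at the top to mitosis (median -4.65) at the bottom, and points beyond -8 or above 8 include genes with 0 counts in 1 group, whose fitted fold is no measurement.

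PPAR target genes moved in part. Of 40 measured targets, 5 were called higher and 0 lower, and the median of the list was 0.11. Angptl4, a secreted protein that blocks lipoprotein lipase, was at 35.9 and 43.1 CPM at 0.5 h, 545 and 417 at 24 h and 844 and 647 at 48 h, a 18.9-fold rise (log2 4.24 ± 0.33, adjusted p 0.00502). The DMSO library of 0.5 h held 95.7 CPM of it, above both rosiglitazone libraries of that time. Acot2, a mitochondrial thioesterase that releases fatty acids from coenzyme A, was at 23.4 and 29.5 CPM at 0.5 h, 382 and 534 at 24 h and 464 and 668 at 48 h, a 21.4-fold rise (log2 4.42 ± 0.36, adjusted p 0.00502). Its cytosolic relative Acot1 rose from 1.8 and 4.58 to 12.6 and 27.5 CPM (log2 2.65 ± 0.59, adjusted p 0.0449), though reads of such close copies may be split between them. The other calls were Hadha, a subunit of the mitochondrial trifunctional protein of fatty acid oxidation, at 361 and 398 and then 824 and 972 CPM (log2 1.24 ± 0.27, adjusted p 0.0409), and the factor Klf15. The latter was at 14 and 17.5 and then 41.8 and 50.1 CPM (log2 1.54 ± 0.31, adjusted p 0.0325).

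Other well-known targets did not pass. The lipid droplet coat Plin2 was at 194 and 209 CPM at 0.5 h and 519.9 and 284 at 48 h (log2 1.00 ± 0.34, adjusted p 0.133), higher in both libraries but by unequal amounts. Pdk4, which turns pyruvate away from the mitochondrion, was at 14.4 and 21.7 and then 27.2 and 26.4 CPM (log2 0.57 ± 0.40, adjusted p 0.449). The carnitine transferase Cpt1a (log2 -0.15 ± 0.30), the fatty acid translocase Cd36 (-0.70 ± 0.52) and the adipocyte fatty acid-binding protein Fabp4 (-0.45 ± 0.69) had adjusted p of 0.812, 0.467 and 0.749, and the libraries of the 2 times overlapped for all 3. The receptor genes Pparg and Ppara were low: Pparg was at 1.44 and 2.47 CPM at 0.5 h and 2.42 and 1.58 at 48 h, and Ppara at 3.77 and 6.61 and then 6.11 and 5.39. Neither passed (log2 0.04 ± 0.85 and 0.15 ± 0.68), and both pairs overlapped. Ppard, the gene of PPARδ, is not described here.

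Related metabolic lists gave few calls. Fatty acid oxidation (25 genes, median 0.15) had Hadha as its 1 call, fatty acid and triglyceride synthesis (19 genes, median 0.09) had 0, and cholesterol synthesis and uptake (22 genes, median -0.49) had 0. Among 21 genes of glycolysis and glucose uptake (median 0.24), 2 rose and 0 fell. The glucose transporter Slc2a1 was at 88.5 and 120.3 CPM at 0.5 h and 708 and 534 at 48 h (log2 2.57 ± 0.31, adjusted p 0.0106), and hexokinase 2, Hk2, at 62.2 and 69.8 and then 328 and 245 (log2 2.12 ± 0.32, adjusted p 0.0161). The insulin-responsive transporter Slc2a4 was low, at 6.9 and 10.5 and then 1.02 and 0 CPM, and did not pass (adjusted p 0.111).

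Metallothioneins, small proteins that bind zinc and copper, rose strongly, and Mt1 had the largest rise of the genes named by rule. Mt1 was at 0.669 and 0.618 CPM at 0.5 h, 46.3 and 88.5 at 24 h and 185 and 241 at 48 h (log2 8.36 ± 0.50, adjusted p 0.00436), with 3.36 in DMSO. Mt2A was at 8.45 and 9.52 CPM at 0.5 h, 190.0 and 350.0 at 24 h and 992 and 1070.3 at 48 h (log2 6.84 ± 0.44, adjusted p 0.00436), with 20.2 in DMSO. Both genes climbed at each time in both libraries, and Mt1m rose as well, from 0.0705 and 0.254 to 5.82 and 4.56 CPM (log2 4.96, adjusted p 0.0467; 4.30 and 6.10 without replicate 1 or replicate 2 of 0.5 h). Reads of these near-identical genes may be split between them. The zinc importer Slc39a14 rose 4.44-fold, from 99.2 and 97.7 to 462 and 413 CPM (log2 2.15 ± 0.27, adjusted p 0.0111), while Slc39a10 fell 2.49-fold (adjusted p 0.0484). In all, 4 of 10 genes of the list rose and 1 fell.

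Genes of the NRF2 response, which detoxify electrophiles and make glutathione and NADPH, rose in 8 of 22 cases and fell in 0, while 14 did not pass. Their median was 1.35, and 0 were called without either library of 0.5 h or without replicate 1 of 48 h. Their share of counts was 0.321% and 0.368% at 0.5 h and 1.52% and 1.25% at 48 h. The quinone reductase Nqo1 was at 113 and 134 CPM at 0.5 h, 683 and 675 at 24 h and 907 and 594 at 48 h (log2 2.60 ± 0.32, adjusted p 0.0111). Glutathione transferase Gsta4 went from 40.5 and 65 to 312 and 565 CPM (log2 3.05 ± 0.40, adjusted p 0.0128) and the pentose phosphate enzyme Taldo1 from 102 and 150.3 to 685 and 894 (log2 2.64 ± 0.35, adjusted p 0.0128). Gstp1, Tkt, Txnrd1, Gclc and the autophagy receptor Sqstm1 were the other calls, which rose 2.82-fold to 6.65-fold. The cystine transporter Slc7a11 did not pass, with 88 and 69.8 CPM at 0.5 h and 2584 and 448 at 48 h (log2 4.26 ± 1.08, adjusted p 0.0608).

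Of 9 genes controlled by the aryl hydrocarbon receptor, a sensor of aromatic compounds, 3 rose and 0 fell. Their median of 1.66 was 0.77 without replicate 1 of 48 h, below that of the NRF2 genes in the same fit (0.95). Cyp1a1, its classical target, was at 0.669 and 1.31 CPM at 0.5 h, 85.8 and 55.2 at 24 h and 19.6 and 41.9 at 48 h (48 h against 0.5 h: log2 4.95 ± 0.58, adjusted p 0.0106; 4.30 without replicate 2 of 48 h). Both libraries of 24 h stood above both of 48 h. Cyp1b1 was at 301 and 315 CPM at 0.5 h and 1757 and 747 at 48 h (log2 2.02 ± 0.43, adjusted p 0.0384; 1.24 without replicate 1 of 48 h). The third call was Nqo1, which is also a target of NRF2.

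Genes induced by unfolded proteins in the ER and by the integrated stress response rose in part, with 6 of 30 called higher, 1 lower and a median of 0.59. The pseudokinase Trib3 went from 75 and 84.6 to 482 and 469.6 CPM (log2 2.58 ± 0.37, adjusted p 0.0151), the mTORC1 inhibitor Ddit4 from 42.1 and 44.3 to 275 and 226 (log2 2.54 ± 0.27, adjusted p 0.00719) and the factor CHOP, Ddit3, from 45.5 and 59.6 to 199 and 323 (log2 2.31 ± 0.47, adjusted p 0.0342). Atf4, which drives these genes, rose 2.33-fold (adjusted p 0.0474). The ER cochaperone Dnajb9 had passed its highest level before 48 h: it was at 64.2 and 75.2 CPM at 0.5 h, 264 and 355 at 24 h and 187 and 192 at 48 h (log2 1.44 ± 0.27, adjusted p 0.0269). Creb3l2 was the member that fell (3.19-fold), and Sdf2l1 the remaining rise (2.91-fold). Of 14 heat shock genes, the small heat shock protein Hspb8 (3.92-fold, adjusted p 0.0206) and Dnaja1 (2.24-fold, adjusted p 0.0435) rose (median 0.53).

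**Figure D4:**
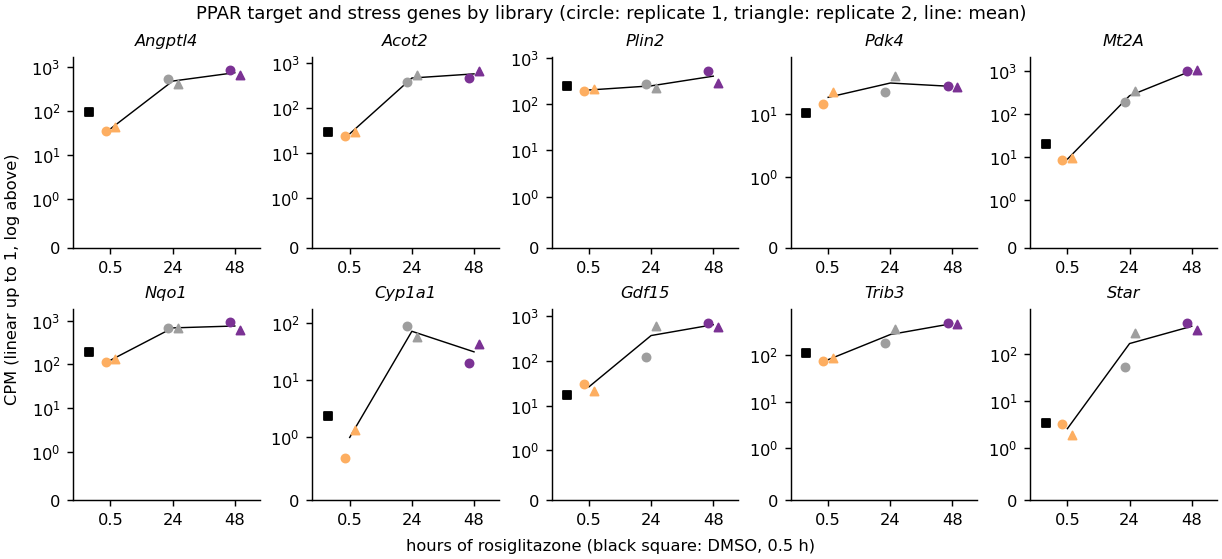
CPM by library for 10 PPAR target and stress genes at 0.5, 24 and 48 h of rosiglitazone, on an axis that is linear up to 1 and logarithmic above, with the DMSO library as a black square. Mt2A and Star were higher at 48 h than at 24 h in both libraries, Cyp1a1 was highest at 24 h, and Angptl4 in DMSO (95.7 CPM) stood above its 0.5 h libraries (35.9 and 43.1 CPM).

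Genes of mitosis had the lowest median of the 41 lists with all libraries in the fit. The contractile genes were lower without replicate 1 of 0.5 h (-4.34 against -4.215) and without replicate 2 of 48 h (-5.31 against -4.92). Of 27 measured mitosis genes, 24 fell. All 27 lay lower in both libraries of 48 h, against 5384 of all 15655 genes tested. The median of the mitosis genes was -4.65 (-4.30 and -4.92 without replicate 1 or replicate 2 of 48 h). They held 0.198% and 0.142% of counts at 0.5 h and 0.00597% and 0.00973% at 48 h. Cdk1, the kinase that drives entry into mitosis, was at 83.9 and 72.3 CPM at 0.5 h, 42.1 and 19.4 at 24 h and 4.87 and 10.1 at 48 h (log2 -3.40 ± 0.52, adjusted p 0.0161; -4.00 without replicate 2 of 48 h). The kinesin Kif23, needed for cytokinesis, went from 76.9 and 59.7 to 0.915 and 1.67 CPM (log2 -5.78 ± 0.56, adjusted p 0.00659), and Cdc20, which activates the ubiquitin ligase of anaphase, from 62.5 and 57.2 to 4.28 and 3.72 (log2 -3.90 ± 0.38, adjusted p 0.00649). The proliferation marker Mki67 was at 188 and 36.8 CPM at 0.5 h and 1.24 and 5.86 at 48 h, with a wide gap between the libraries of each time (log2 -5.05 ± 1.16, adjusted p 0.0476). Its log2 fold change was -3.45 and -5.78 without replicate 1 or replicate 2 of 0.5 h and -4.30 and -6.49 without replicate 1 or replicate 2 of 48 h. It lost its call in each of these fits. Anln, Nusap1 and Top2a fell 25.2-fold, 40.2-fold and 28.5-fold (Top2a: log2 -4.84; -4.09 and -6.39 without replicate 1 or replicate 2 of 48 h). Without replicate 1 of 48 h 0 of the 27 kept a call, and without replicate 2 of 48 h 16 were called.

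Of 31 DNA replication genes, 12 fell, 0 rose and 19 did not pass, with a median of -1.93. The replicative helicase subunits Mcm6 (88.4 and 88.7 to 12.6 and 12.6 CPM, log2 -2.82 ± 0.30, adjusted p 0.00694) and Mcm4 (86.5 and 74.2 to 12.8 and 16.6 CPM, log2 -2.45 ± 0.30, adjusted p 0.0111) fell 7.04-fold and 5.48-fold, and Mcm3, Mcm5 and Mcm10 fell 9.73-fold, 51.7-fold and 16.4-fold. Rrm2, which makes deoxynucleotides, went from 29.9 and 30.2 to 0.403 and 0.744 CPM (log2 -5.78 ± 0.67, adjusted p 0.0105) and cyclin E2, Ccne2, from 30.6 and 27.4 to 1.21 and 1.95 (log2 -4.23 ± 0.50, adjusted p 0.0106).

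Of 21 p53 targets and cell cycle inhibitors, 4 rose, 1 fell and 16 did not pass (median 0.62). The inhibitor p21, Cdkn1a, was at 157 and 157 CPM at 0.5 h, 238 and 249 at 24 h and 514 and 459.7 at 48 h, climbing at each time with little spread (log2 1.63 ± 0.25, adjusted p 0.0161). Cdkn2b rose from 38.9 and 49.1 to 300.2 and 129.8 CPM (log2 2.29 ± 0.42, adjusted p 0.0251; 1.53 without replicate 1 of 48 h). Cdkn1c rose from 21.8 and 46.2 to 169 and 371 (log2 2.99 ± 0.66, adjusted p 0.0421) and the growth arrest gene Gadd45a from 69.2 and 70.1 to 516 and 411 (log2 2.73 ± 0.35, adjusted p 0.0122). Its relative Gadd45g fell 2.78-fold (adjusted p 0.0405). The 15 Bcl2 family genes of cell survival and death had a median of 0.49 and 0 calls.

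Immediate early genes, which respond within minutes to serum, stretch or growth factors, fell in 8 of 32 cases and rose in 1, while 23 did not pass. Their median was -0.58 (-0.15 without replicate 1 of 0.5 h). Fos was at 227 and 173 CPM at 0.5 h, 6.21 and 4.75 at 24 h and 3.22 and 14 at 48 h (log2 -4.57 ± 0.68, adjusted p 0.0157), against 78.8 in DMSO. Fosb (91.8 and 30.4 to 1.02 and 2.6 CPM, log2 -5.14 ± 0.79) and Egr3 (15.1 and 10.9 to 0.366 and 0 CPM, log2 -5.80 ± 0.91, with 0 counts in replicate 2 of 48 h) fell further still. Without replicate 2 of 48 h the log2 fold changes of Fos and Fosb were -5.95 and -5.89. Without replicate 1 of 48 h that of Fos was -3.87, and without replicate 1 of 0.5 h that of Fosb was -4.14. The growth factor-induced Egr1 was at 1011 and 629 CPM at 0.5 h, 60.1 and 31.2 at 24 h and 80.6 and 86.4 at 48 h, thus lower at 24 h than at 48 h (log2 -3.30 ± 0.42, adjusted p 0.0122). Jun, Ier2, Dusp1 and Klf6 fell 2.83-fold to 3.93-fold. In the DMSO library, Fos and Egr1 (488 CPM) were lower than in both rosiglitazone libraries of 0.5 h, whereas Fosb (123) and Egr3 (32) were higher. The phosphatase Dusp2 was the member that rose, from 3.49 and 4.83 to 251 and 46.9 CPM (log2 5.16 ± 0.95, adjusted p 0.0257).

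Targets of the mechanically controlled coactivator YAP, among them the secreted CCN proteins, fell in 9 of 16 cases and rose in 0, with a median of -2.34 (-3.01 without replicate 2 of 48 h). Cyr61 (CCN1) was at 1437 and 1370.3 CPM at 0.5 h, 98 and 55 at 24 h and 49.5 and 60 at 48 h, a 25.7-fold fall with close replicates (log2 -4.68 ± 0.39, adjusted p 0.00521). Ctgf (CCN2) fell 9.96-fold (adjusted p 0.0192), Crim1 went from 151 and 131 to 13.8 and 11.7 CPM (log2 -3.46 ± 0.29, adjusted p 0.00502), and Amotl2 and Ptpn14 fell 11-fold and 19.2-fold. The list shares Ankrd1, Tgfb2, Ctgf and Cyr61 with the fetal and hypertrophy genes, so the 2 counts are not separate.

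Of 41 measured interferon-stimulated genes, 5 were called higher and 3 lower. Among all genes tested, 1.97% were called higher and 4.62% lower, so the 3 lower calls stand near the share of all genes. The fold change was negative for 29 of the 41 (median -0.70), against 8261 of all 15655 genes tested. The antiviral radical-SAM enzyme Rsad2 (viperin) was at 4.51 and 6.94 CPM at 0.5 h, 14.7 and 41.2 at 24 h and 982 and 547 at 48 h, a 133-fold rise (log2 7.06 ± 0.68, adjusted p 0.00649). Ifit3, which binds viral RNA complexes, was at 2.68 and 5.63 CPM at 0.5 h, 8.04 and 11.9 at 24 h and 129.7 and 122 at 48 h (log2 4.92 ± 0.48, adjusted p 0.00649; 5.56 without replicate 2 of 0.5 h). In both genes most of the rise lay between 24 and 48 h. The ubiquitin-like modifier Isg15 rose from 6.23 and 5.67 to 44.3 and 68.6 CPM (log2 3.24 ± 0.37, adjusted p 0.0104), Oasl from 5.74 and 8.47 to 78.1 and 59 (log2 3.27 ± 0.40, adjusted p 0.0111) and the ligase Herc6 4.91-fold (adjusted p 0.0468).

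Other members of the same list were lower. The antiviral GTPase Mx2 went from 14.7 and 48 to 3.11 and 6.6 CPM (log2 -2.71 ± 0.63, adjusted p 0.0485), Parp9 from 37.6 and 41.5 to 17.1 and 15.7 (log2 -1.27 ± 0.30) and RGD1563091, matched to the list's Samd9 entry by identifier, from 27.8 and 33.7 to 6.99 and 3.35 (log2 -2.55 ± 0.43). Irf7, a factor that amplifies interferon genes, was at 16.3 and 23.6 CPM at 0.5 h, 35.4 and 41.5 at 24 h and 8.93 and 5.77 at 48 h (log2 -1.43 ± 0.39, adjusted p 0.0731). It was thus higher at 24 h and lower at 48 h than at 0.5 h. Mx1 did not pass, with 3.59 and 10.6 CPM at 0.5 h and 0.549 and 3.44 at 48 h (adjusted p 0.284). The 15 genes of MHC class I loading and the immunoproteasome, a classical output of interferon γ, had a median of 0.38 and 0 calls.

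Of 28 chemokines and cytokines, 4 were called higher and 0 lower. Cxcl10, a T cell attractant, was at 4.83 and 5.85 CPM at 0.5 h, 9.4 and 10.7 at 24 h and 189.6 and 112 at 48 h, a 28.2-fold rise (log2 4.82 ± 0.39, adjusted p 0.00502). The neutrophil attractants Cxcl6 (16.3 and 16.8 to 147 and 110.1 CPM, log2 2.96 ± 0.49, adjusted p 0.0185) and Cxcl1 (70.5 and 36.5 to 852 and 217 CPM, log2 3.32 ± 0.67, adjusted p 0.0334; 1.98 and 3.99 without replicate 1 or replicate 2 of 48 h) rose too. Ccl6 was at 17 and 22.7 CPM at 0.5 h, 8.92 and 4.9 at 24 h and 164 and 96.7 at 48 h, thus below its 0.5 h level at 24 h (log2 2.72 ± 0.43, adjusted p 0.0165). Several cytokines were high in 1 library of 48 h: Il6 was at 58.3 and 4.74 CPM, Csf3 at 104 and 4.74, Cxcl2 at 77.8 and 2.51 and Il1b at 24.7 and 3.07, each in the order of replicates 1 and 2, and none passed (adjusted p 0.0636 to 0.303). The list's median was 1.16, 0.44 without replicate 1 of 48 h and 1.57 without replicate 2.

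**Figure D5:**
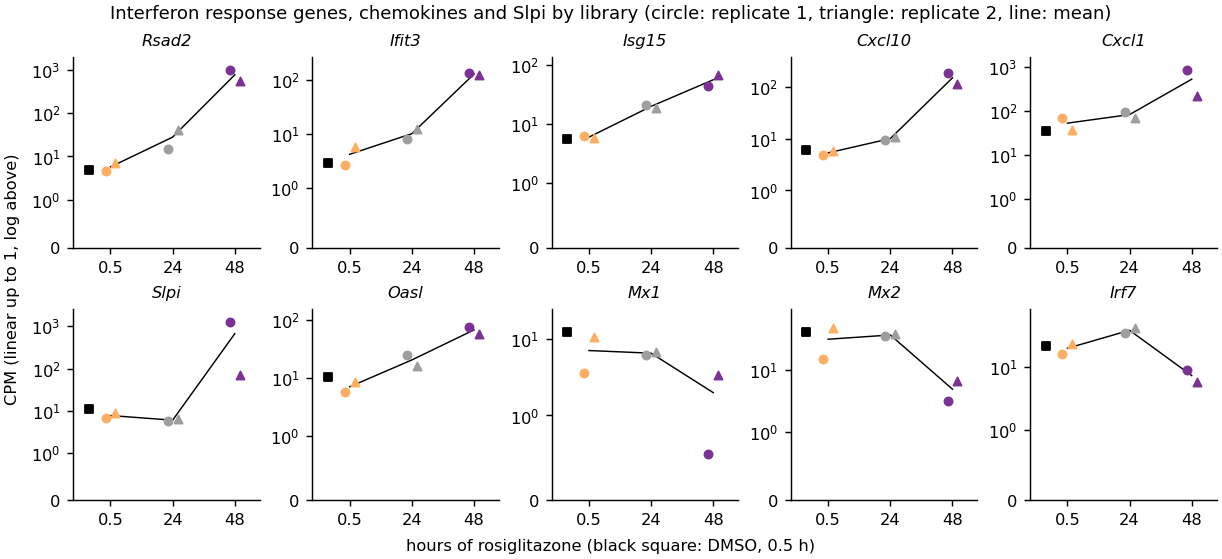
CPM by library for 7 interferon response genes, the chemokines Cxcl10 and Cxcl1 and the protease inhibitor Slpi at 0.5, 24 and 48 h of rosiglitazone, on an axis that is linear up to 1 and logarithmic above, with the DMSO library as a black square. Rsad2, Ifit3, Isg15 and Cxcl10 were highest at 48 h in both libraries, Mx2 and Irf7 were lowest there, and Slpi differed between the libraries of 48 h (1276 and 69.6 CPM).

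Of 34 collagen and matrix genes, 10 fell, 1 rose and 23 did not pass, with a median of -1.47 (-1.18 without replicate 1 of 48 h and -2.47 without replicate 2). They held 10.7% and 9.73% of counts at 0.5 h and 4.54% and 5.77% at 48 h, least in replicate 1 of 48 h. Col8a1, a short-chain collagen, was at 343 and 283 CPM at 0.5 h, 91.5 and 59.4 at 24 h and 12 and 11 at 48 h, with close replicates (log2 -4.77 ± 0.35, adjusted p 0.00485). Fibrillin 1, Fbn1, of elastic microfibrils, went from 2659.8 and 2323 to 380.5 and 578 CPM (log2 -2.38 ± 0.34, adjusted p 0.0151) and Col12a1 from 999.7 and 666 to 15.4 and 60.4 (log2 -4.46 ± 0.67, adjusted p 0.0161; -3.82 and -5.76 without replicate 1 or replicate 2 of 48 h). The collagen-crosslinking oxidases Lox, Loxl1 and Loxl2 fell 8.13-fold, 5.1-fold and 4.1-fold. Col1a1, the main chain of type I collagen, just missed the threshold, at 26742 and 27690.5 CPM at 0.5 h, 12556 and 15006 at 24 h and 4750.0 and 10584 at 48 h (log2 -1.83 ± 0.45, adjusted p 0.0565; -2.52 without replicate 2 of 48 h).

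Decorin, Dcn, a collagen-binding proteoglycan, was the matrix gene that rose, from 808 and 994 CPM at 0.5 h to 2156 and 1712 at 24 h and 8477 and 4549 at 48 h (log2 2.85 ± 0.41, adjusted p 0.0149). Of 21 metalloproteinases and inhibitors, 5 fell and 1 rose. The gelatinase Mmp2 rose 2.52-fold, from 1415 and 1693 to 4296 and 3548 CPM (log2 1.34 ± 0.30, adjusted p 0.0447). The inhibitor Timp3 was at 118 and 117 CPM at 0.5 h and 3.77 and 19.9 at 48 h (log2 -3.34 ± 0.70, adjusted p 0.0371; -2.60 without replicate 1 of 48 h and -4.96 without replicate 2), and Mmp16 and Adamts5 fell 5.0-fold and 4.23-fold. Stromelysin, Mmp3, was at 0.317 and 0 CPM at 0.5 h and 155 and 5.67 at 48 h and did not pass (adjusted p 0.0617). Leaving out replicate 1 of 48 h moved the list's median from -0.72 to -1.86.

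Lysosomal genes rose in 5 of 29 cases and fell in 0, with a median of 0.64. Cathepsin B, Ctsb, was at 761 and 1025 CPM at 0.5 h, 1101 and 1302 at 24 h and 2119 and 2420.0 at 48 h (log2 1.35 ± 0.31, adjusted p 0.0456), but DMSO held 1505. The sialidase Neu1 went from 29.7 and 33.5 to 89.5 and 82.2 CPM (log2 1.44 ± 0.27, adjusted p 0.0272), the calcium channel Mcoln1 from 27.5 and 29.2 to 70.1 and 74.9 (log2 1.35 ± 0.27, adjusted p 0.0334) and the autophagy receptor Sqstm1 from 435 and 551 to 2612 and 2903 (log2 2.48 ± 0.34, adjusted p 0.0136). The 28 cytosolic ribosomal protein genes all had a positive fold change, with a median of 0.84, and 0 passed. Both libraries of 48 h were higher for 26 of the 28, and for 4428 of all 15655 genes tested. Circadian clock genes (17 measured, median 0.44) had 0 calls.

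Some markers of non-myocyte cells that can persist in such cultures also changed, and their part in the results above was not tested. Of 15 smooth muscle and pericyte markers, 7 fell and 0 rose, with a median of -3.04, and their share of counts went from 0.601% and 0.571% to 0.0504% and 0.126%. Calponin, Cnn1, fell from 92.9 and 68.3 to 0.476 and 1.12 CPM (log2 -6.77 ± 1.04, adjusted p 0.0161; -7.39 without replicate 2 of 48 h). Smooth muscle myosin, Myh11, fell from 74.6 and 36.3 to 3.55 and 7.25 (log2 -3.38 ± 0.53, adjusted p 0.0163; -2.78 without replicate 1 of 0.5 h), with Smtn and Mcam also called. Smooth muscle actin, Acta2, was at 2034 and 1889.7 CPM at 0.5 h and 22.1 and 189 at 48 h (log2 -4.22 ± 1.04, adjusted p 0.0563). Several of these genes are also active in fetal and neonatal heart muscle.

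Of 12 endothelial markers, 4 fell and 0 rose (median -1.86, share of counts 0.0467% and 0.049% at 0.5 h and 0.0229% and 0.0234% at 48 h). These were the growth factor receptors Kdr (19.1 and 18.8 to 1.68 and 1.21 CPM), Flt1 (50.5 and 44.8 to 13.1 and 11.2) and Tek (48.4 and 55.3 to 20.7 and 11.2) and the cadherin Cdh5 (36.8 and 44 to 4.03 and 8.18). Of 13 epicardial and mesothelial markers, 4 fell and 0 rose (median -1.69, -3.02 without replicate 2 of 48 h). They held 0.0448% and 0.0456% at 0.5 h and 0.00987% and 0.0142% of counts at 48 h. Mesothelin, Msln, went from 122 and 139.7 to 13.7 and 19.1 CPM (log2 -3.00 ± 0.50, adjusted p 0.0192), Krt8 from 26.8 and 23.1 to 3.07 and 2.51, Lrrn4 from 30.3 and 31 to 0.476 and 0 and the uroplakin Upk3b from 19.5 and 19.4 to 0 and 0.372.

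Of 16 macrophage markers, 3 fell and 0 rose (median -0.95), and their share was 0.0367% and 0.0506% at 0.5 h and 0.0287% and 0.0473% at 48 h, and these ranges overlapped. The growth factor receptor Csf1r, which macrophages depend on, was at 33.4 and 37.8 CPM at 0.5 h and 6.37 and 11.3 at 48 h (log2 -2.03 ± 0.37, adjusted p 0.0246). The complement gene C1qc was at 6.2 and 10.9 and then 0.403 and 0.186 (log2 -4.73 ± 0.70, adjusted p 0.0156; -5.51 without replicate 1 of 48 h). Ptprc, the pan-leukocyte CD45, was at 35.8 and 41.4 and then 15.3 and 9.02 (log2 -1.66 ± 0.38, adjusted p 0.0481). Cd68 was at 24.6 and 25.3 and then 37 and 20.2 CPM and did not pass. The DMSO library stood apart on these markers: they held 0.125% of its counts, with Csf1r at 109, Ptprc at 91, C1qc at 31.4 and Cd68 at 68.1 CPM, each above both rosiglitazone libraries of 0.5 h. Its higher values of Angptl4 and Ctsb stand beside this difference, whose part in them was not tested. Of 14 fibroblast markers, Dcn rose and 0 fell (median -0.94, -1.60 without replicate 2 of 48 h), and their share was 3.29% and 3.37% at 0.5 h and 1.54% and 2.07% at 48 h. Postn, a matrix protein of activated fibroblasts, was at 3367 and 3078 CPM at 0.5 h and 766 and 3299 at 48 h and did not pass (log2 -0.66 ± 0.62, adjusted p 0.575; -2.07 without replicate 2 of 48 h). The fibroblast share at 0.5 h stood beside a label of over 98% myocytes and was larger than the 2.02% and 1.94% of the contractile genes, though shares of counts are not shares of cells.

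Among rarer types, 9 glial (median -0.83), 6 red blood cell (-0.70) and 9 adipocyte markers (0.04) had 0 calls. Without replicate 2 of 48 h these medians were -1.69, -1.60 and -1.24. At 48 h the markers held 0.00196% and 0.00159%, 0.0155% and 0.0347%, and 0.00294% and 0.00739% of counts. Of 8 skeletal muscle markers, Ckm was called lower (median -0.42, -1.48 without replicate 2 of 48 h), and the defining factors Myod1, Myog, Myf5 and Pax7 were at 0 in all 4 libraries of the comparison.

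Beyond the lists, the largest rises included genes of steroid, calcium and lipid handling. Star, which carries cholesterol into mitochondria for steroid synthesis, was at 3.31 and 1.89 CPM at 0.5 h, 54.1 and 287 at 24 h and 460.3 and 337 at 48 h (log2 7.26 ± 0.89, adjusted p 0.0111). Parvalbumin, Pvalb, a calcium buffer of fast muscle and neurons, was at 0.282 and 0.254 CPM at 0.5 h, 13 and 8.89 at 24 h and 44.1 and 73.9 at 48 h (log2 7.75 ± 0.55, adjusted p 0.00485). The fatty acid hydroxylase Cyp4b1 went from 2.29 and 2.25 to 88.3 and 165 CPM (log2 5.80 ± 0.59, adjusted p 0.00683) and the receptor tyrosine kinase Ret from 1.16 and 1.05 to 52.8 and 72.5 (log2 5.81 ± 0.87, adjusted p 0.0157). In these 4 genes both libraries of 48 h were high.

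For other large rises the libraries of 48 h differed widely. The secreted protease inhibitor Slpi was at 6.76 and 8.79 CPM at 0.5 h, 5.64 and 6.44 at 24 h and 1276 and 69.6 at 48 h (log2 6.43 ± 1.25, adjusted p 0.0303; 3.13 without replicate 1 of 48 h and 7.36 without replicate 2). The haem carrier hemopexin, Hpx, was at 3.38 and 2.4 and then 386 and 52.4 CPM (log2 6.24 ± 1.27, adjusted p 0.0347; 4.14 and 7.06 without the same libraries). The immune receptor Slamf7 (43.7 and 5.02 CPM at 48 h), the carboxylesterase Ces1f (189 and 33.9) and Vat1l (347 and 91.8) showed the same order of libraries, and their log2 fold changes were 7.77 ± 1.51, 6.83 ± 1.41 and 7.45 ± 0.79. Without replicate 1 of 48 h these were 5.45, 5.08 and 6.15. Across all genes with a mean of at least 5 CPM at 48 h, 62 were over 5-fold higher in replicate 1 than in replicate 2 and 116 over 5-fold higher in replicate 2.

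The largest falls included genes at or near 0 at 48 h. Tnni3k, a kinase of heart muscle that interacts with cardiac troponin I, was at 27.3 and 29.5 CPM at 0.5 h, 19 and 1.13 at 24 h and 0 at 48 h in both libraries, and was thus at least 102-fold lower (adjusted p 0.031). The retinol dehydrogenase Dhrs9 (18.5 and 19.8 CPM at 0.5 h), the PCNA-associated factor Ns5atp9 (13.5 and 12.7) and the carnosine synthase Carns1 (16.1 and 7.56) also had 0 counts at 48 h, at least 68.6-fold, 47-fold and 42.3-fold lower. In all, 33 called genes had 0 counts in both libraries of 48 h and 1 called gene had 0 in both of 0.5 h. Lims2, a focal adhesion adaptor (PINCH-2), fell from 33.4 and 35 to 0.183 and 0 CPM (log2 -8.08 ± 0.85, adjusted p 0.00719). Without replicate 1 of 48 h, 0 counts of it remain at that time, so the fitted fold is then no measurement. Itgbl1 and the septin Sept4 fell from 24.7 and 31.7 to 0.183 and 0 and from 33.6 and 30.9 to 0.0366 and 0.465. For the flagellin receptor Tlr5 and the basement membrane protein Frem2, 3 counts remained at 48 h, and the ratio of 0.5 h to 48 h was 180.0 (95% interval 61.4 to 875) and 194 (95% interval 66.2 to 943), counting error only. Fam111a, a protease linked to DNA replication, went from 47.6 and 53.4 to 0.22 and 0.558 CPM (log2 -7.18 ± 0.53, adjusted p 0.00485; -6.52 and -7.81 without replicate 1 or replicate 2 of 48 h).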

How the data were processed

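Total RNA of cultured rat heart muscle cells was sequenced from strand-preserving libraries, per the labels' protocols. The authors deposited whole-number read counts for each gene, not normalized (33005 entries for 32545 rat Ensembl genes; entries that repeat a gene hold equal counts and were used once). Tools named in the submitters' processing notes are HTSeq, DESeq2, cutadapt 1.11 and FastQC 0.11.5, with the builds Rnor_6.0 and hg19. Not given in the sources used here are the aligner and how the counting treated strand and reads shared by near-identical genes, so antisense partners and close copies are uncertain.

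The 2 splits of a library differed by no more than sampling noise (chi-square of 0.964 to 1.02 per degree of freedom, genes of 20 or more counts) and were summed. By the same measure, libraries of a group differed by 49.1 at 0.5 h, 278 at 24 h and 118 at 48 h. Counts as deposited were tested with edgeR 4.0.16 in R 4.3.3 (TMM scaling, filterByExpr, a robust quasi-likelihood fit of all 4 groups with 3 residual degrees of freedom), with Benjamini-Hochberg adjustment over all 15655 genes and a threshold of 0.05. The groups of 24 h and DMSO entered the fit to share its estimate of spread. CPM are scaled by TMM. Fold changes are given with an SE derived from the test, as the absolute log2 fold change divided by the square root of the F statistic. The script was also run on simulated data that had the same spread in every group, unlike these libraries, and no result here rests on that run. Where a group has 0 counts, the fold is a bound against 3 counts in its shallowest library; with 1 to 3 counts, the ratio has an exact 95% interval.

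The members and gene lists were chosen with earlier results of these data known, so lists are described by counts of called members and their median log2 fold change, with no test. Of 895 entries in 41 lists, 871 matched a gene (2 by Ensembl ID or synonym) and 833 were tested. Named genes were the 12 largest increases and 12 largest decreases among called genes with a mean of at least 5 CPM, a gene symbol and no overlap of libraries, from each list with at least 3 called members up to 4 of lowest adjusted p, and 48 fixed genes, of which 45 were tested. Other list members given with values are those called, or singled out after their values were seen. Alternatives were DESeq2 1.42.0, its size factors, other filters and thresholds, other sets of libraries or splits in the fit, thinning, a replicate block, and leaving out each library.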

Additional observations from a re-analysis of the deposited data

How the results depend on the processing

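Against 1031 genes called (308 higher, 723 lower), edgeR with DESeq2 size factors, no filter, a mean of at least 5 CPM, no DMSO library, libraries thinned to the shallowest, and either split of each library alone (added after seeing the data) gave counts within 1.5 times of these. DESeq2 called 2547 genes (857 higher, 1690 lower), a fit of the 2 groups alone 2733 (1062, 1671), a fit without the 24 h libraries 2741 (1027, 1714) and a fit with each split as its own replicate 6943 (3234, 3709). A threshold of 0.10 gave 1936 (703, 1233) and one of 0.01 gave 53 (16, 37). Leaving out 1 library in turn gave 12 to 2706 genes called, 8 to 1044 higher and 1 to 1747 lower. The fewest calls came without replicate 1 of 48 h, and the highest counts without a replicate of 24 h.

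With the replicate number as a replicate block, 407 genes were called (86 higher, 321 lower), of which 402 were among the 1031. Deviations of same-numbered libraries correlated at 0.0624 between 0.5 h and 48 h, -0.0834 between 0.5 h and 24 h and -0.122 between 24 h and 48 h. With 2 libraries in each of these groups, such correlations cannot decide whether the numbers pair the libraries. The labels state no pairing.

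Of 2736 values of named genes under the alternatives, 2164 kept direction and side of the threshold, 517 lost and 47 gained a call, and 8 changed sign, none of them of a called gene. For called genes, whose libraries of the 2 times did not overlap, there was little room for a change of sign. Pparg was at -0.54 with split 2 alone and -0.002 with the replicate block. Leaving out 1 library gave a range of -0.34 (without replicate 1 of 48 h) to 0.47 for Pparg, -0.22 (without replicate 1 of 0.5 h) to 0.61 for Ppara and -0.34 (without replicate 1 of 48 h) to 0.57 for Cd68. It gave -1.49 to 0.12 (without replicate 1 of 48 h) for Fabp4 and -0.55 to 0.14 (without replicate 2 of 48 h) for Cpt1a. The cause of these changes was not tested. Using only the splits whose titles end in a letter or a digit was not run, because column names of 24 and 48 h do not carry the titles. Depth limits genes under about 0.279 CPM in replicate 2 of 48 h.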

Other observations

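Of the 1031 called genes, 827 were in none of the lists and were not named by rule. The genes of this and the next paragraph come from them and were chosen after their values were seen, so they are single examples, with no count of the uncalled genes of their kind and no test as groups. Among genes of the cytoskeleton, β-actin, Actb, was at 3325 and 3776 CPM at 0.5 h, 1123 and 792 at 24 h and 1028 and 863 at 48 h (log2 -1.91 ± 0.33, edgeR adjusted p 0.0199), and vimentin, Vim, an intermediate filament protein of mesenchymal cells, at 3687 and 4299, then 2633 and 1588, then 1316 and 1456 (log2 -1.53 ± 0.35, adjusted p 0.0476). The actin crosslinker filamin A, Flna, fell 4.22-fold, vinculin, Vcl, 4.12-fold, α-actinin 1, Actn1, 5.3-fold and tropomyosin 4, Tpm4, 3.25-fold. Of proteins of the intercalated disc, which couples heart muscle cells, called lower were N-cadherin, Cdh2 (707 and 749.7 to 183 and 276 CPM), desmoplakin, Dsp (366 and 337 to 55.5 and 85.7), desmoglein 2, Dsg2 (93.2 and 92.4 to 17.1 and 18.9) and plakophilin 2, Pkp2 (73.8 and 63.2 to 2.67 and 11.7), whereas its gap junction protein Gja1 did not pass (log2 -0.79 ± 0.54, adjusted p 0.435). Caveolin 1, Cav1, of membrane caveolae, went from 346 and 364 to 6.62 and 20.9 CPM (log2 -4.71 ± 0.83, adjusted p 0.0227). The interleukin 33 receptor Il1rl1 was at 623 and 538 CPM at 0.5 h and 2.75 and 8.74 at 48 h (log2 -6.70 ± 0.79, adjusted p 0.0106), and endothelin 1, Edn1, at 69 and 51.9 and then 1.02 and 0.93 (log2 -5.93 ± 0.99, adjusted p 0.0195).

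Some genes known as NF-κB targets or acute-phase genes were among the rises. Mitochondrial superoxide dismutase, Sod2, was at 175 and 216 CPM at 0.5 h, 532 and 418 at 24 h and 2533 and 1190.2 at 48 h (log2 3.25 ± 0.43, adjusted p 0.0128). Lipocalin 2, Lcn2, which binds bacterial siderophores, was at 71.6 and 86.5 and then 1543 and 389 CPM (log2 3.61 ± 0.67, adjusted p 0.0269), with 146 in DMSO. The chemokine Cxcl3 (13 and 10.2 to 553 and 96.2 CPM) and the apoptosis inhibitor Birc3 (5.81 and 4.03 to 137 and 35.3) were higher in replicate 1 of 48 h than in replicate 2, whereas pentraxin 3, Ptx3, was higher in replicate 2 (216 and 588). Relb, an NF-κB subunit (21.1 and 20.3 to 68.3 and 70.7 CPM, log2 1.75 ± 0.28), and the factor Cebpb (42 and 60.9 to 343 and 325 CPM, log2 2.70 ± 0.30) rose to similar levels in both. Nfe2l2, the gene of NRF2 itself, rose 2.37-fold (adjusted p 0.0338), and Pla2g7, a secreted phospholipase, rose from 36.6 and 44.3 to 586 and 711 CPM (log2 4.0 ± 0.33, adjusted p 0.00502), with 87.5 in DMSO and 396 and 557 at 24 h.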
